A study of Mus musculus with 10 samples.

Results

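The immediate early and rapid feedback genes are a list of 36 named mouse genes. Many are genes that cells switch on within minutes of a stimulus, or inhibitors that switch the response off again. Not all depend on a stimulus, and Jund is often expressed without one. All 36 were found by gene identifier among the 16620 genes with a unique molecular identifier (UMI, the tag that marks 1 captured RNA molecule) in the table. The list was given by name. It was chosen with earlier results of these data known, so counts over its genes are descriptions. It holds the AP-1 subunits Fos, Fosb, Fosl2, Jun, Junb and Jund with their partners Atf3 and Maff, the transcription factors Egr1, Egr2, Egr3, Klf2, Klf4, Klf6, Klf10, Nr4a1, Nr4a2, Nr4a3, Myc and Csrnp1, and the MAP kinase phosphatases Dusp1, Dusp2 and Dusp5. It also holds the mRNA decay factors Zfp36, Zfp36l1 and Zfp36l2, the NF-kappaB regulators Nfkbia and Nfkbiz, and the regulators of signalling and growth Ier2, Ier3, Ier5, Btg1, Btg2, Rhob, Sgk1 and Gadd45b.

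The cells were macrophages and microglia, the phagocytes of nervous tissue, captured from retina and optic nerve for droplet sequencing of RNA 3' ends. All groups were Wildtype mice of the 129S1/SvlmJ strain, of both sexes, collected at 10 weeks of age. The strain entry of the labels also reads P56. Injured retina and injured optic nerve came from mice whose optic nerve had been crushed at 8 weeks, 2 weeks before collection, a lesion that cuts the axons of retinal ganglion cells. Uninjured retina and uninjured optic nerve had no crush. Libraries are named here by their sample numbers: retina 5 and 6 (uninjured), the pools retina 1+2 and 3+4 (injured), nerve 2 and 4 (uninjured) and nerve 1 and 3 (injured). Each pool joins 2 of the 4 injured retina samples, so each of the 4 groups had 2 libraries. Nothing in the labels says whether libraries came from separate animals, so p-values measure the spread between these libraries, which may be technical.

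Immediate early genes need no new protein for their transcription: kinases of the MAP kinase and calcium pathways activate factors that already sit at their promoters, among them serum response factor and CREB. Their mRNAs are short lived, and several of their products, such as the phosphatase encoded by Dusp1, the RNA-binding protein encoded by Zfp36 and the inhibitor encoded by Nfkbia, act back on the pathway that induced them. In microglia and macrophages these genes are known to respond to inflammatory ligands and also to the isolation of the cells from tissue.

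The table held 1168 cells and 7920570 UMIs. Libraries ran from 12 cells and 56838 UMIs (retina 6) to 682 cells and 5234954 UMIs (nerve 3), and the depth of the median cell lay between 1078 UMIs (nerve 1) and 12989 (retina 1+2). Uninjured retina had 0 UMIs in the last 24183 of the 52181 table entries, where the other groups had some. In retina this gap falls together with crush, and among uninjured libraries it falls together with tissue. All 36 genes lie in the first 27998 entries. A check against cell markers found T-like cells (22 of 109 and 24 of 57 cells in the injured retina pools, 0 in uninjured retina) and oligodendrocyte-like cells (28 of 103 and 4 of 28 in uninjured nerve, 14 of 146 and 47 of 682 in injured nerve). Summed over 16 T and NK cell markers, the level was 457 and 1061 CPM (UMIs of a gene per 1000000 UMIs of its library) in the injured retina pools against 49.0 and 0 in retina 5 and 6. The 14 oligodendrocyte markers summed to 14937 and 9367 CPM in nerve 2 and 4 and to 6947 and 1314 CPM in nerve 1 and 3. Each main result is therefore also given without the 149 oligodendrocyte-like, endothelial-like and T-like cells where its call changes. Doublets were not called, and 2 barcodes were each shared by 2 cells, in different libraries.

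The promoter sequences of these genes were also described. Their part in the changes of expression was not tested. Of the 36 genes, 29 had an entry in RefSeq's table of promoters (build GRCm38.p6), and the 250 bases before each RefSeq start were searched on both strands. The core of the cyclic AMP response element, TGACG, which CREB and ATF proteins can bind, occurred in 14 of the 29 (48.3%), in 17.9% of all 27018 genes searched and in 20.3% of the 17486 protein-coding ones. The palindrome TGACGTCA, which contains that core on each strand, occurred in Btg2 and Dusp1 (6.90%, against 1.62% of all genes). The CArG box, the binding sequence of serum response factor, occurred in Zfp36 and Dusp5 (6.90%, against 1.40%). The AP-1 site TGANTCA occurred in 1 gene, Zfp36l1 (3.45%, against 6.87%). The GC box GGGCGG occurred in 23 of 29 (79.3%, against 32.9% of all and 42.7% of protein-coding genes), and a kappaB site (GGG, any 5 bases, CC) in 20 of 29 (against 45.4% and 51.1%). The TATA box TATAAA occurred in 5 of 29 (17.2%, against 12.4% of protein-coding genes), and the promoters were not matched for base composition. A match is a run of letters and not a shown binding site. Bases farther from the start were not searched, and 7 of the 36 genes had no entry, so a site may be missed. The 5 windows printed next belong to genes that fell in the injured retina, 4 with the TGACG core and 1 with a CArG box, each written 5′ to 3′ in the gene's direction with those matches in capitals.
Fos (chr12:85473640-85473889, plus strand): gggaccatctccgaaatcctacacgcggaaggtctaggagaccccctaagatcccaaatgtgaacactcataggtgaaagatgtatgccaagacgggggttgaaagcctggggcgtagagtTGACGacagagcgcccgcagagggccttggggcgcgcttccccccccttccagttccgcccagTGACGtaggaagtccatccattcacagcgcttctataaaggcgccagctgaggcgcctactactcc
Junb (chr8:84978749-84978998, minus strand): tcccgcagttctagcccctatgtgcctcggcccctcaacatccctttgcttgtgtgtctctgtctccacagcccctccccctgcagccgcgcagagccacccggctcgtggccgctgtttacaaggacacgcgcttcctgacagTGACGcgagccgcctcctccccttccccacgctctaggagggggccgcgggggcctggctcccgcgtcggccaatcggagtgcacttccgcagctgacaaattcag
Dusp1 (chr17:26508473-26508722, minus strand): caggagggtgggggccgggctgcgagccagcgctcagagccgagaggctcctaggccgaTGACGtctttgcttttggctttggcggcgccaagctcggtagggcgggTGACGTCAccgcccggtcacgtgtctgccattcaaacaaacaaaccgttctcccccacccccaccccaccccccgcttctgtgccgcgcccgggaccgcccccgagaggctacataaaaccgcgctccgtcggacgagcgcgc
Btg2 (chr1:134079156-134079405, minus strand): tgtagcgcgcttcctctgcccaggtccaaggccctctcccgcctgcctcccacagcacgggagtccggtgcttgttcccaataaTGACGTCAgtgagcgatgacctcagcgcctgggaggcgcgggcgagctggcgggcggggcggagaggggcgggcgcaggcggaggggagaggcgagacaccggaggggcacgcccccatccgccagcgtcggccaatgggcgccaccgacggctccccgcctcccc
Zfp36 (chr7:28379229-28379478, minus strand): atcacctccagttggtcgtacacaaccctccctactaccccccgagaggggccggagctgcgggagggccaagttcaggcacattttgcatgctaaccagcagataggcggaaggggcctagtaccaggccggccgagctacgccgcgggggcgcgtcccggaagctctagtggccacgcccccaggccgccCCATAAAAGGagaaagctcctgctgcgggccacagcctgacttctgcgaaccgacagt
In Fos the cores begin 129 and 66 bases before the start, in Junb 106 bases before it, in Dusp1 191 and 143 bases before it, and in Btg2 166 bases before it. The CArG box CCATAAAAGG of Zfp36 begins 58 bases before its start. The windows of Dusp1 and Zfp36 lie inside the longer gene models that GENCODE M21 gives for these genes. GENCODE M21 (GRCm38) calls all 36 genes protein coding, and 10 of them overlap another gene, among them Jun (Junos on the other strand), Junb (Prdx2), Dusp1 (Ergic1) and, on the same strand, Csrnp1 (Cx3cr1, a microglial receptor). Whether strand was used in counting is not given in the sources used here, so reads of these 10 genes and of their partners may not be separable.

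Together the 36 genes took 7.96% and 8.00% of all UMIs in uninjured retina 5 and 6. They took 2.75% and 2.95% in the injured retina pools 1+2 and 3+4, 2.98% and 3.42% in uninjured nerve 2 and 4, and 1.48% and 1.43% in injured nerve 1 and 3. No 2 groups overlapped, and injured retina lay just below uninjured nerve. In sums over a library, fewer cells that express a gene and less RNA per cell cannot be told apart. Of the 35 genes in the joint fit, 20 had both uninjured retina libraries above all 6 others (9.55% of the 5517 genes of that fit), including Fos, Jun, Junb, Jund, Egr1, Dusp1 and Zfp36. Both injured nerve libraries lay below all 6 others for 17 of the 35 (4.88% of all genes), including Jun, Junb, Egr1, Klf2 and Zfp36. Both injured retina libraries lay above all others for 0 of the 35 (9.95% of all genes) and below all others for 0 (7.52%). Uninjured nerve lay above all others for Zfp36l1 alone (8.79% of all genes) and below for Dusp5 alone (3.66%), and injured nerve lay above all others for 0 (2.7%).

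**Figure D1:**
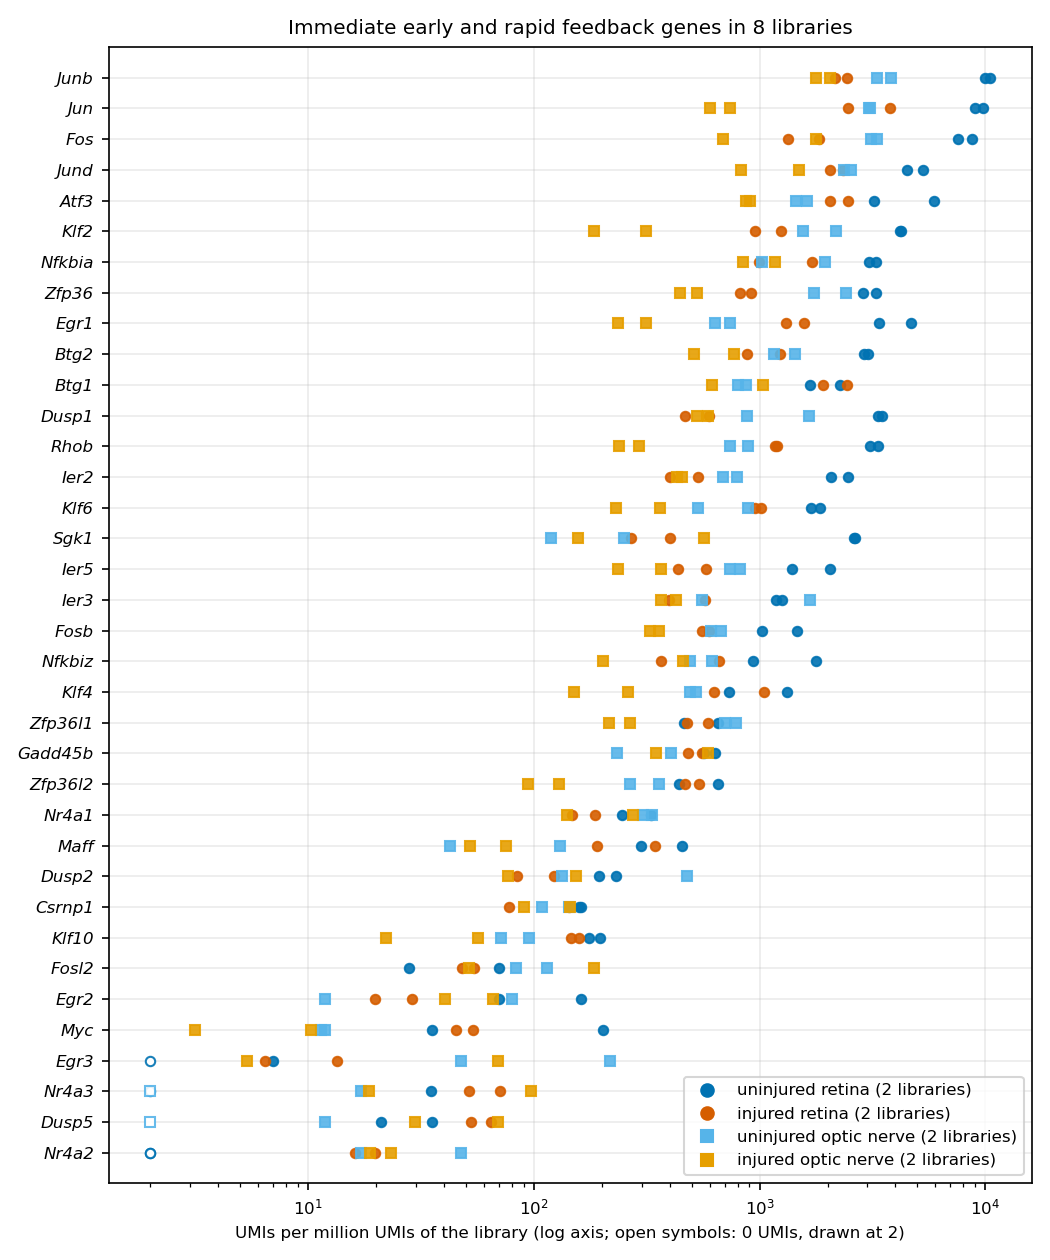
Level of each of the 36 genes in each of the 8 libraries, in CPM on a log axis, with genes ordered by their mean over the libraries. Circles are retina and squares optic nerve, and open symbols mark libraries with 0 UMIs. Blue circles (uninjured retina) stand to the right for most genes, for example Junb at 10498 and 10011 CPM, and orange squares (injured nerve) to the left, for example Klf2 at 185 and 315 CPM.

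The genes were also counted cell by cell. In cells thinned to 1000 UMIs, which left out 297 shallower cells (1 in retina 5, 0 in retina 6 and the pools, 19 and 9 in nerve 2 and 4, 67 and 201 in nerve 1 and 3), the median cell showed 19 of the 36 genes in retina 5 and 19 in retina 6. It showed 12 and 10 in the injured retina pools, 12 and 13 in nerve 2 and 4, and 8 and 6 in nerve 1 and 3. Without thinning the medians were 25 and 24, 27 and 21, 15 and 13, and 7 and 9 genes, in the same order of libraries, with the injured retina pool 1+2 raised by its depth. No uninjured retina cell showed fewer than 10 of the genes after thinning, whereas 29 of the 481 cells of nerve 3 showed 0. UMIs from free RNA in the droplets are part of these counts and were not measured.

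**Figure D2:**
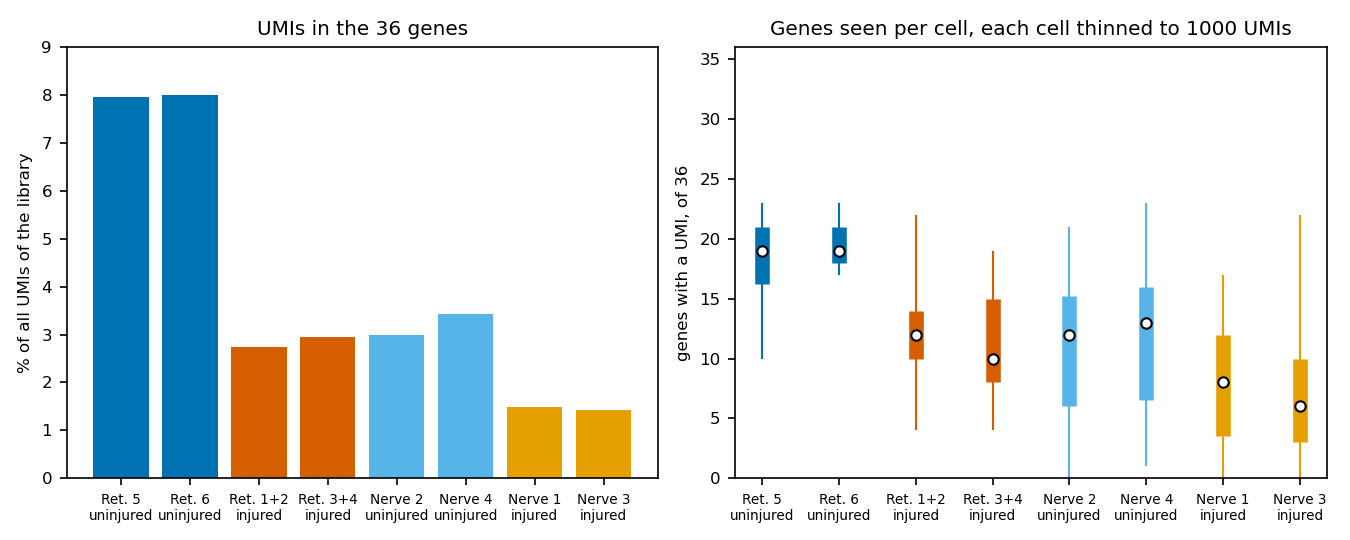
Left, percent of all UMIs of each library that fell in the 36 genes. Right, number of the 36 genes with a UMI per cell after thinning each cell to 1000 UMIs, with the median (white point), the middle 50% of cells (thick bar) and the full range (thin line). Uninjured retina is highest in both panels (7.96% and 8.00% of UMIs, a median of 19 genes) and injured nerve lowest (1.48% and 1.43%, medians of 8 and 6).

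The first comparison asked how these genes differ in retina after crush. In injured retina 20 of the 34 genes tested fell against uninjured retina and 0 rose (edgeR quasi-likelihood, Benjamini-Hochberg adjusted p under 0.05). Of all 3312 genes tested 9.72% fell, 9.99% rose and 19.7% were called in either direction. The median difference was -1.17 on the log2 scale for the 34 genes and 0.07 for all genes tested. Before adjustment 23 of the genes passed downward and 0 upward, against 17.0% and 18.6% of all genes, and DESeq2 called 19 down and 0 up, against 5.43% and 4.86%. Both injured pools lay below both uninjured libraries for 25 of the 34 genes (30.1% of all genes) and above them for 2, Nr4a3 and Dusp5 (32.8%). Egr3 and Nr4a2 had too few UMIs to be tested.

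The AP-1 subunits, which pair to form the dimeric factor that binds TGANTCA, accounted for 5 of the 20. Fos, a subunit that must pair with a JUN protein, stood at 7543 and 8691 CPM in retina 5 and 6 and at 1340 and 1827 CPM in pools 1+2 and 3+4. It fell by 2.33 on the log2 scale (standard error 0.30, edgeR adjusted p = 0.00047), a 5.02-fold difference with no overlap. Fosb, a close relative of Fos, stood at 1023 and 1460 CPM against 595 and 553 CPM and fell by 1.05 (SE 0.26, edgeR adjusted p = 0.0175). Fosl2 was low, with 4 UMIs in each uninjured retina library, and its difference of 0.36 (SE 0.54) did not pass. Junb, a JUN subunit, stood at 10498 and 10011 CPM against 2152 and 2438 CPM and fell by 2.14 (SE 0.30, edgeR adjusted p = 0.000693). Jun, the founding JUN subunit, stood at 9034 and 9817 CPM against 2474 and 3770 CPM and fell by 1.57 (SE 0.31, edgeR adjusted p = 0.00575). Jund, often expressed without stimulation, stood at 5288 and 4486 CPM against 2051 and 2338 CPM and fell by 1.14 (SE 0.29, edgeR adjusted p = 0.0191). All 5 had both injured pools below both uninjured libraries (30.1% of all genes). Of the partners, Atf3, a stress-induced factor, stood at 5939 and 3202 CPM against 2056 and 2467 CPM, and its difference of -1.03 (SE 0.36) missed the threshold (edgeR adjusted p = 0.0617). Maff, a small MAF protein, stood at 455 and 299 CPM against 343 and 190 CPM, with overlap.

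Among the other transcription factors 4 of the 10 tested fell. Egr1, a zinc finger factor used as a marker of recent stimulation, stood at 3397 and 4698 CPM in retina 5 and 6 and at 1566 and 1316 CPM in the pools, and fell by 1.44 (SE 0.28, edgeR adjusted p = 0.00489). Its relative Egr2 rested on few molecules, 23 and 4 UMIs in retina 5 and 6 (161 and 70.4 CPM) and 28 and 9 UMIs in the pools (19.7 and 28.9 CPM), and fell by 2.57 (SE 0.49, edgeR adjusted p = 0.00474). Klf2, a Kruppel-like factor that restrains inflammatory activation of myeloid cells, stood at 4174 and 4223 CPM against 952 and 1238 CPM and fell by 1.92 (SE 0.28, edgeR adjusted p = 0.00106). Klf6 stood at 1688 and 1847 CPM against 957 and 1010 CPM and fell by 0.82 (SE 0.26, edgeR adjusted p = 0.0449). Without the T-like cells and 1 endothelial-like cell the call on Klf6 was lost (difference -0.70, edgeR adjusted p = 0.0608), and the other 19 remained. Klf4 stood at 735 and 1320 CPM against 1051 and 627 CPM, so the groups overlapped. Nr4a3, an orphan nuclear receptor, had 5 and 0 UMIs in uninjured retina and 101 and 16 in injured retina, a difference of 1.37 (SE 0.70) that did not pass. Myc (difference -1.53, SE 0.54) and Nr4a1 (-0.80, SE 0.31) passed before but not after adjustment.

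The feedback genes held 5 of the 20. Dusp1, a phosphatase that inactivates p38 and JNK kinases, stood at 3355 and 3484 CPM in retina 5 and 6 and at 466 and 595 CPM in the pools, was 6.36-fold lower and fell by 2.67 (SE 0.28, edgeR adjusted p = 0.000125). Dusp2 stood at 231 and 194 CPM against 84.5 and 122 CPM and fell by 1.13 (SE 0.35, edgeR adjusted p = 0.0412). Dusp5 rested on 3 and 2 UMIs against 75 and 20, of which 18 and 14 lay in T-like cells. In the remaining phagocytes, the cells outside the classes named from markers, Dusp5 overlapped (25.4 and 35.2 CPM against 44.1 and 22.7 CPM). Zfp36, which encodes tristetraprolin, a protein that marks AU-rich cytokine mRNAs for decay, stood at 3271 and 2868 CPM against 819 and 920 CPM and fell by 1.81 (SE 0.28, edgeR adjusted p = 0.00139). Its relatives did not pass. Zfp36l1 stood at 462 and 651 CPM against 479 and 589 CPM (difference -0.01, 95% interval -0.53 to 0.52), and Zfp36l2 at 441 and 651 CPM against 467 and 537 CPM (difference -0.06, 95% interval -0.58 to 0.46). Nfkbia, the inhibitor that holds NF-kappaB in the cytoplasm, stood at 3292 and 3044 CPM against 1710 and 994 CPM and fell by 1.20 (SE 0.32, edgeR adjusted p = 0.024). Nfkbiz, a nuclear cofactor of NF-kappaB, stood at 938 and 1777 CPM against 662 and 367 CPM and fell by 1.30 (SE 0.34, edgeR adjusted p = 0.0239).

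Of the regulators of signalling and growth 6 of 8 fell. Sgk1, a kinase induced by serum and glucocorticoids, stood at 2640 and 2621 CPM in retina 5 and 6 and at 400 and 270 CPM in the pools, was 7.62-fold lower and fell by 2.93 (SE 0.30, edgeR adjusted p = 0.000118). Ier2, a nuclear protein of the early response, stood at 2465 and 2076 CPM against 399 and 534 CPM and fell by 2.28 (SE 0.30, edgeR adjusted p = 0.000499). Both genes had wide gaps between the groups. Ier5 stood at 1394 and 2041 CPM against 578 and 434 CPM (difference -1.69, SE 0.28), and Ier3 at 1254 and 1179 CPM against 571 and 399 CPM (difference -1.30, SE 0.29). Rhob, an early-induced small GTPase, stood at 3089 and 3343 CPM against 1168 and 1190 CPM (difference -1.42, SE 0.26), and Btg2, an antiproliferative protein, at 3025 and 2903 CPM against 882 and 1226 CPM (difference -1.48, SE 0.29). The edgeR adjusted p of these 4 ran from 0.00192 for Ier5 to 0.0103 for Ier3. Btg1, the close relative of Btg2, stood at 2276 and 1671 CPM against 1911 and 2435 CPM, with overlap (difference 0.13, 95% interval -0.46 to 0.72). Gadd45b, a stress-induced protein, stood at 567 and 633 CPM against 557 and 482 CPM (difference -0.17, 95% interval -0.68 to 0.34).

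Fos, Junb, Ier2, Dusp1 and Sgk1 kept their retina call under all 7 other settings and without each of the 4 libraries in turn. The number of genes called was 9 without pool 1+2, 11 without pool 3+4, 18 without retina 5 (17 down and 1 up) and 23 without retina 6. With no filter on low counts, and with edgeR or limma on all 8 libraries, Fosb, Jund, Ier3, Dusp2, Klf6, Nfkbia and Nfkbiz were no longer called, with adjusted p from 0.0603 (Fosb, limma) to 0.458 (Klf6, edgeR with no filter). Egr2 was lost with limma (adjusted p = 0.121), Dusp2 with DESeq2 (adjusted p = 0.182) and Fosb in thinned cells. Heat shock genes moved with the same contrast: 10 of the 12 listed rose and 0 fell, and their summed level was 8915 and 8709 CPM in uninjured retina against 32961 and 30998 CPM in injured retina. The 12 microglia markers moved the other way. They summed to 14133 and 17471 CPM in retina 5 and 6 and to 6553 and 6433 CPM in the pools. Of them 10 were lower in both pools than in both uninjured libraries (30.1% of all genes tested). P2ry12 stood at 1030 and 1355 CPM against 260 and 344 CPM, and Fcrls was at 0 in pool 3+4. The part of both lists in the result was not tested.

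**Figure D3:**
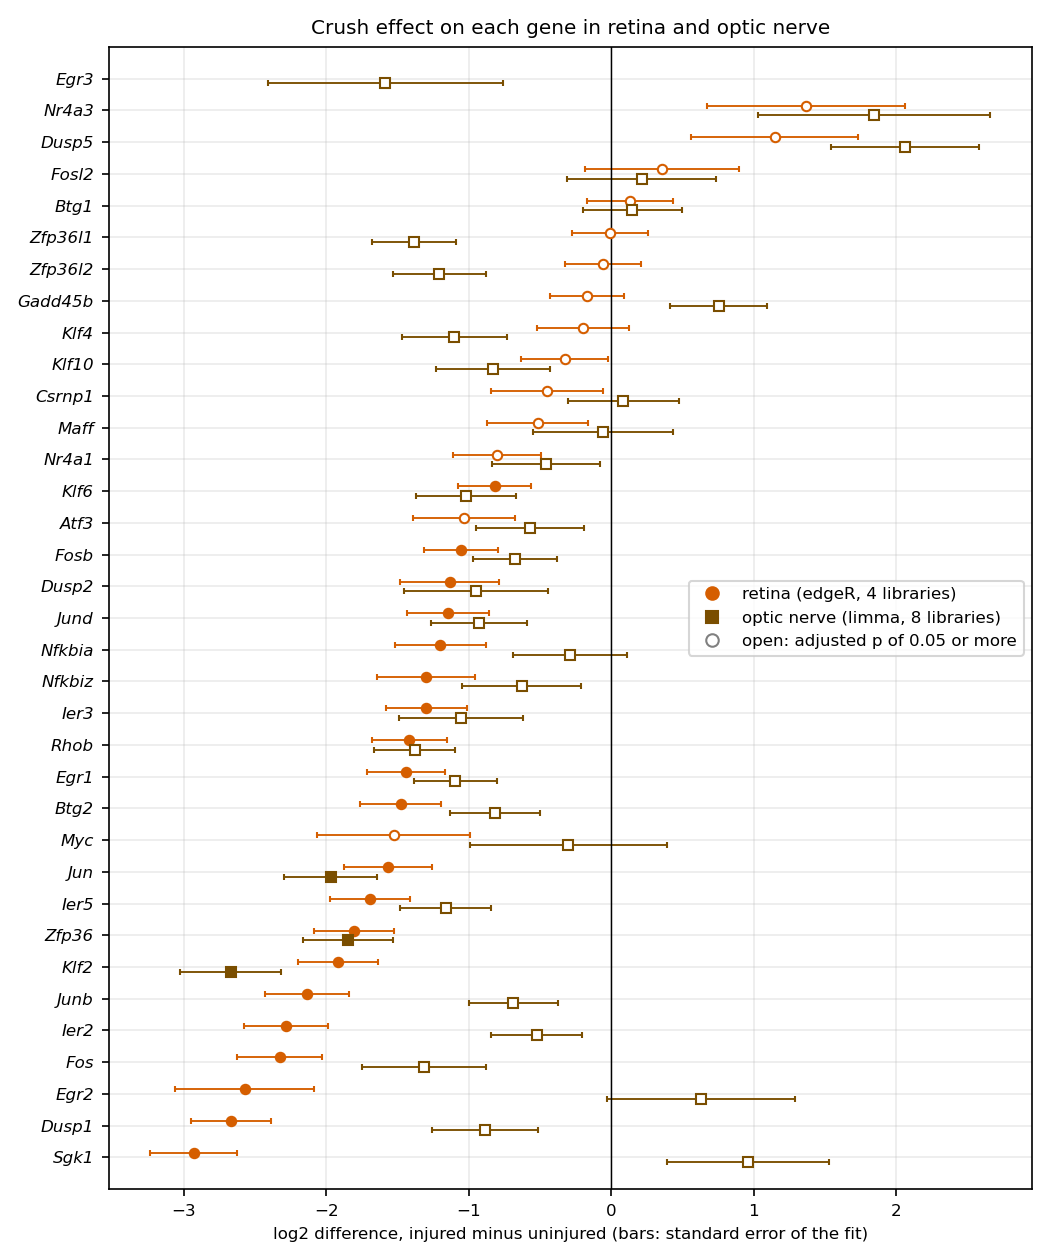
Log2 difference between injured and uninjured libraries for each gene, with bars for the standard error of the fit, in retina (circles, edgeR on 4 libraries) and optic nerve (squares, limma on 8 libraries). Filled symbols passed an adjusted p of 0.05. Of the retina circles 20 are filled, all left of 0 and down to -2.93 for Sgk1, and of the nerve squares 3 are filled (Klf2, Jun and Zfp36).

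The same question was put to the optic nerve. In injured nerve 3 of the 35 genes tested fell against uninjured nerve and 0 rose (limma on log2 CPM with 10 added to each value, all 8 libraries, adjusted p under 0.05), a scale that understates the change of low genes. Of all 5517 genes 0.0906% fell and 0.254% were called in either direction. The median difference was -0.82 for the 35 genes and 0.02 for all genes, with 27 genes below 0 and 8 above. Before adjustment 17 passed downward and 3 upward (Dusp5, Nr4a3 and Gadd45b), against 4.17% of all genes downward, 5.93% upward and 10.1% in either direction. DESeq2 called 5 down and 0 up, against 0.81% and 0.787% of the 4447 genes to which it gave an adjusted p. Both injured libraries lay below both uninjured ones for 23 of the 35 genes (26.7% of all genes) and above them for Nr4a3 and Dusp5 (14.2% of all genes).

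Klf2 stood at 1557 and 2175 CPM in nerve 2 and 4 and at 185 and 315 CPM in nerve 1 and 3. It fell by 2.67 on the log2 scale (SE 0.36, limma adjusted p = 0.0105), 6.37-fold, with no overlap. Jun stood at 3083 and 3055 CPM against 606 and 741 CPM and fell by 1.97 (SE 0.33, limma adjusted p = 0.0368). Zfp36 stood at 1739 and 2413 CPM against 446 and 527 CPM and fell by 1.85 (SE 0.32, limma adjusted p = 0.0451). The calls changed with the cells and libraries used. Without the oligodendrocyte-like, endothelial-like and T-like cells Klf2 kept its call (difference -2.59, limma adjusted p = 0.0181), and Jun (-2.17) and Zfp36 (-1.97) were at an adjusted p of 0.0502. Without nerve 3 only Klf2 was called (-3.06, limma adjusted p = 0.03). Of the 3 genes, 0 were called without nerve 1, nerve 2, nerve 4, pool 1+2 or pool 3+4, where the differences ran from -1.53 (Zfp36 without nerve 1) to -2.70 (Klf2 without nerve 2). Without retina 5 only Klf2 was called (-2.61, limma adjusted p = 0.0268), and without retina 6 all 3 were. A library left alone in its group is assumed to vary like the others. The 11 border macrophage markers summed to 5926 and 939 CPM in nerve 2 and 4 and to 1895 and 1084 CPM in nerve 1 and 3. No setting left out border macrophage-like cells (41.7% and 3.57% of nerve 2 and 4, 5.48% and 3.67% of nerve 1 and 3). In nerve 2 Klf2 stood at 2234 CPM in them and at 779 CPM in the remaining phagocytes. Jun stood at 4027 against 3032 CPM, and Zfp36 ran the other way, at 1903 against 2907 CPM. In the remaining phagocytes of nerve 4 and 1, Klf2 stood at 1986 and 171 CPM. The part of border macrophage-like cells was not tested. Other marker lists separated the groups. The 14 endothelial markers summed to 680 and 5124 CPM in nerve 2 and 4 against 169 and 507 CPM in nerve 1 and 3. The 8 markers of Muller glia and astrocytes summed to 22742 and 17510 CPM against 62049 and 97999 CPM, most of it Apoe, which macrophages also express, and without Apoe to 1503 and 2092 CPM against 935 and 453 CPM. The part of these lists in the result was not tested.

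The other AP-1 genes did not pass. Fos stood at 3120 and 3317 CPM in uninjured nerve and at 690 and 1784 CPM in injured nerve (difference -1.31, 95% interval -2.17 to -0.46). Junb stood at 3299 and 3828 CPM against 1770 and 2045 CPM (-0.69, 95% interval -1.29 to -0.08), and Jund at 2377 and 2544 CPM against 1500 and 825 CPM (-0.93, 95% interval -1.59 to -0.26). Fosb stood at 675 and 606 CPM against 358 and 329 CPM, Atf3 at 1446 and 1629 CPM against 872 and 905 CPM. None of these 5 overlapped between the groups (26.7% of all genes had both injured libraries below both uninjured ones). Egr1 stood at 638 and 737 CPM against 314 and 236 CPM, also without overlap (-1.09, limma adjusted p = 0.191).

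For all 3 decay factors both injured nerve libraries lay below both uninjured ones (26.7% of all genes). Zfp36l1 stood at 700 and 785 CPM against 267 and 215 CPM (difference -1.38, 95% interval -1.96 to -0.81) and Zfp36l2 at 268 and 357 CPM against 94.1 and 129 CPM (-1.21, 95% interval -1.85 to -0.56), neither past the threshold. The test of the difference between tissues did not pass for Zfp36l1 (-1.41, limma adjusted p = 0.115) or Zfp36l2 (-1.19, limma adjusted p = 0.21). Among the phosphatases, Dusp1 stood at 1654 and 880 CPM against 530 and 590 CPM (-0.89, 95% interval -1.61 to -0.16). Dusp2 stood at 134 and 476 CPM against 154 and 76.8 CPM, with overlap. Of the NF-kappaB genes, Nfkbia stood at 1022 and 1950 CPM against 844 and 1172 CPM, with overlap, and Nfkbiz at 492 and 618 CPM against 458 and 202 CPM.

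Ier2 stood at 794 and 689 CPM in uninjured nerve and at 452 and 431 CPM in injured nerve (difference -0.52, 95% interval -1.15 to 0.11). Ier5 stood at 737 and 820 CPM against 367 and 236 CPM, and Ier3 at 558 and 1664 CPM against 367 and 427 CPM. Rhob stood at 740 and 892 CPM against 292 and 238 CPM (-1.38, limma adjusted p = 0.099), and Btg2 at 1158 and 1438 CPM against 772 and 512 CPM (-0.82). All 5 had both injured libraries below both uninjured ones (26.7% of all genes), and none passed. Btg1 stood at 803 and 868 CPM against 1039 and 613 CPM, with overlap, and Gadd45b at 233 and 404 CPM against 590 and 349 CPM (0.76, limma adjusted p = 0.49). Klf4 stood at 490 and 523 CPM against 260 and 151 CPM, and Klf6 at 891 and 535 CPM against 361 and 231 CPM, again lower in both injured libraries without passing. Egr2 (79.7 and 11.9 CPM against 65.9 and 40.3) and Maff (42.7 and 131 CPM against 75.3 and 52.1) overlapped.

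Whether crush acted differently in the tissues was tested as an interaction. The crush effect in nerve minus that in retina passed for 1 of the 35 genes, Sgk1 (0.526% of all genes were called upward and 1.4% in either direction). Sgk1 stood at 250 and 119 CPM in uninjured nerve and at 157 and 564 CPM in injured nerve, groups that overlapped. In retina it showed the wide fall described earlier. In the remaining phagocytes it stood at 862 and 145 CPM in nerve 2 and 4, and at 141 and 593 CPM in nerve 1 and 3. In the border macrophage-like cells of nerve 2 it had 7 UMIs (34.6 CPM). No setting left out border macrophage-like cells, and their part was not tested. The difference of the effects was 3.85 on the log2 scale (SE 0.81, limma adjusted p = 0.0452). It was close to the threshold, and of the 8 fits that left out 1 library only the one without nerve 1 kept it (4.87, limma adjusted p = 0.00817). Without nerve 3 it was 2.88 (limma adjusted p = 0.163), and without pool 3+4 it was 3.53 (limma adjusted p = 0.386), the highest p of the 8. Without retina 5, retina 6, pool 1+2, nerve 2 and nerve 4 it was 3.63, 4.05, 4.15, 4.48 and 3.23, with limma adjusted p of 0.0637, 0.075, 0.231, 0.0651 and 0.181. Without the oligodendrocyte-like, endothelial-like and T-like cells it was 3.54 (limma adjusted p = 0.128). Ier2 (1.67), Dusp1 (1.71), Junb (1.39) and Egr2 (2.37) had positive differences that passed before and not after adjustment, with limma adjusted p from 0.0956 for Ier2 to 0.214 for Egr2. Zfp36l1 (-1.41) and Zfp36l2 (-1.19) passed before and not after adjustment in the other direction. With Sgk1 these make 5 genes upward and 2 downward before adjustment, against 6.65% and 11.1% of all genes. DESeq2 called 1 upward, Sgk1, and 0 downward. Its shares were 4.29% and 3.01% of the 1560 genes to which it gave an adjusted p, fewer than the limma fit tested.

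Uninjured optic nerve was then compared with uninjured retina. Here 13 of 35 genes were lower in nerve and 1, Egr3, was higher (limma, adjusted p under 0.05), against 2.66% and 5.22% of all 5517 genes and 7.88% in either direction. Before adjustment 25 passed downward and 1 upward, against 9.73% and 16.0% of all genes. DESeq2 called 10 down and 0 up, against 1.63% and 1.69% of the 4661 genes to which it gave an adjusted p. The median difference was -1.26 for these genes and 0.13 for all genes. Both nerve libraries lay below both retina libraries for 27 of 35 genes (18.6% of all genes) and above for Fosl2, Zfp36l1 and Egr3 (30.1%). Sgk1 had the largest difference of the 14, with 250 and 119 CPM in nerve against 2640 and 2621 CPM in retina, (difference -3.92 on the log2 scale, SE 0.57, limma adjusted p = 0.00331). Egr1 (difference -2.60, limma adjusted p = 0.000945) and Rhob (-2.04, limma adjusted p = 0.00269) were lower too. Sgk1, Egr1 and Rhob kept this call under all 10 other settings, and their differences stayed below 0 without each of the 8 libraries. None of these settings left out border macrophage-like cells, which made up 41.7% and 3.57% of the cells of nerve 2 and 4. Their share was 9.68% and 0% in retina 5 and 6. In nerve 2 Sgk1 stood at 34.6 CPM in them and at 862 CPM in the remaining phagocytes, the cells outside the named classes. Egr1 stood at 420 against 1808 CPM and Rhob at 736 against 1099 CPM. The part of these cells was not tested.

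The AP-1 genes Junb (difference -1.60), Jun (-1.69) and Atf3 (-1.57), with Maff (-2.21), also passed, with limma adjusted p from 0.0127 for Junb and Jun to 0.0321 for Atf3. Maff stood at 42.7 and 131 CPM in nerve against 455 and 299 CPM in retina. Fos (-1.40) did not pass (limma adjusted p = 0.0708). The remaining called genes were Ier2 (-1.67), Dusp1 (-1.57), Klf6 (-1.41), Btg1 (-1.29), Btg2 (-1.26) and Ier5 (-1.18). Egr3, an EGR factor known from immune and neuronal activation, had 76 and 4 UMIs in nerve 2 and 4 (216 and 47.6 CPM) and 1 and 0 UMIs in retina 5 and 6 (7.003 and 0 CPM). It stood at 13.4 and 6.43 CPM in the injured retina pools and at 69.03 and 5.35 CPM in nerve 1 and 3. The difference between the uninjured tissues was 3.03 (SE 0.83, limma adjusted p = 0.0468). This call was lost with no filter, with DESeq2, with edgeR on all 8 libraries and with a pseudocount of 2 (adjusted p from 0.0753 to 0.143), and without retina 6, either retina pool, nerve 2 (1.92, limma adjusted p = 0.212) or nerve 4. Of the 76 Egr3 UMIs in nerve 2, 72 came from its 30 remaining phagocytes, the cells outside the named classes. Without the oligodendrocyte-like, endothelial-like and T-like cells the calls were 5 (Egr1, Egr3, Ier2, Rhob and Sgk1), and Jun (-1.48) and Junb (-1.34) were at limma adjusted p of 0.0546 and 0.0514. The calls numbered 3 without either injured retina pool, 4 without nerve 4, 6 without retina 5, 7 without nerve 2, 8 without nerve 1 or nerve 3 and 10 without retina 6. The 12 microglia markers summed to 5439 and 9784 CPM in nerve 2 and 4 against 14133 and 17471 CPM in retina 5 and 6. Of them 10 were lower in both nerve libraries (18.6% of all genes), and their part was not tested. Tissue here cannot be told apart from the difference in table entries between uninjured retina and the other groups.

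Injured optic nerve was compared with injured retina in the same way. Of 35 genes 7 were lower in nerve and 0 higher (limma, adjusted p under 0.05), against 1.12% of all genes lower, 0.508% higher and 1.63% in either direction. Before adjustment 16 passed downward and 0 upward, against 6.78% and 6.49% of all genes, and DESeq2 called 10 down and 0 up, against 2.16% and 2.79%. Egr1 stood at 314 and 236 CPM in nerve against 1566 and 1316 CPM in retina (difference -2.30, SE 0.29, limma adjusted p = 0.00233), and Rhob at 292 and 238 CPM against 1168 and 1190 CPM (-2.06, SE 0.28, limma adjusted p = 0.00336). Jun (-2.11), Klf2 (-2.06), Klf4 (-1.92), Klf6 (-1.67) and Zfp36l2 (-2.03) were the other 5, with limma adjusted p from 0.00797 for Jun to 0.0389 for Klf6. With endothelial-like, oligodendrocyte-like and T-like cells left out the call on Klf6 was lost (-1.71, limma adjusted p = 0.0716). In each of the 7 both nerve libraries lay below both retina pools, as in 19 of the 35 genes (30.1% of all genes).
Fos, Junb, Ier2 and Dusp1, which fell in the retina after crush, did not differ past the threshold between the injured tissues, with differences of -0.43 (95% interval -1.28 to 0.43), -0.20 (-0.81 to 0.40), -0.00 (-0.63 to 0.63) and 0.15 (-0.58 to 0.87). The calls numbered 0 without either injured retina pool, 2 without nerve 1, 3 without nerve 3, 4 without nerve 2, 6 without retina 5 or nerve 4 and 10 without retina 6. These tissue comparisons share libraries with the crush comparisons.

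The genes were next set out by cell class. Outside the T-like, oligodendrocyte-like, endothelial-like and border macrophage-like classes stood 937 remaining phagocytes. In them the 36 genes took 8.50% and 8.00% of UMIs in retina 5 and 6, 2.84% and 3.12% in the injured retina pools, 3.99% and 3.64% in nerve 2 and 4, and 1.55% and 1.31% in nerve 1 and 3. In these cells uninjured retina was again highest and injured nerve lowest. Different clusters held these cells: 26 of the 31 cells of retina 5 and all 12 of retina 6 fell in a single cluster. Its 10 leading genes were headed by Egr3, one of the 36 (which were left out of the clustering), and included the microglial markers P2ry12 and Tmem119. Egr3 had only 1 and 0 UMIs in retina 5 and 6, so its place came from the nerve cells of that cluster. The cluster held 0 injured retina cells. Of the injured retina cells 78 and 21 were in a cluster whose 10 leading genes included the heat shock genes Bag3, Hsp90aa1 and Hsph1. In nerve, too, the groups lay in different clusters. The cluster with P2ry12 and Tmem119 held 19 and 11 cells of nerve 2 and 4 and 3 and 4 cells of nerve 1 and 3, while a cluster led by Cxcl13 held 10 and 8 against 95 and 193. Of nerve 3, 184 cells were in a cluster led by Gpnmb and 136 in one led by Cst7, which together held 2 cells of nerve 2 and 0 of nerve 4. Depth differed as well, with medians of 4193 and 4712 UMIs in the remaining phagocytes of retina 5 and 6 and 14067 and 6333 UMIs in those of the pools.

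Border macrophage-like cells, which carry Mrc1, F13a1 and Lyve1, are phagocytes of the coverings and vessels of the nervous system. The 36 genes took 3.46% of their UMIs in nerve 2 (43 cells) and 3.48% in nerve 3 (25 cells). In nerve 3 this was above the value of 1.31% in the 605 remaining phagocytes. In nerve 2 it was below the value of 3.99% in the 30 remaining phagocytes. The 8 such cells of nerve 1 gave 1.78%, against 1.55% in its remaining phagocytes. The 3 of retina 5 gave 4.77%, against 8.50%. Fos stood at 4596 CPM in the border macrophage-like cells of nerve 3 and at 1630 CPM in the remaining phagocytes, Jun at 2478 against 631 CPM, and Junb at 4776 against 1948 CPM. Sgk1 ran the other way, with 85.1 against 593 CPM (17 and 2893 UMIs), and in nerve 2 with 34.6 against 862 CPM. Each is 1 library per comparison, so no test was made. T-like cells of the injured retina gave 1.69% and 1.98% of UMIs to the genes. Btg1 was higher in them (3238 and 3394 CPM) than in the remaining phagocytes of the same pools (1805 and 2263 CPM), whereas Rhob had 5 and 0 UMIs in them against 1274 and 1403 CPM. Oligodendrocyte-like cells gave 0.718% in nerve 2, 0.570% in nerve 1 and 0.445% in nerve 3.

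**Figure D4:**
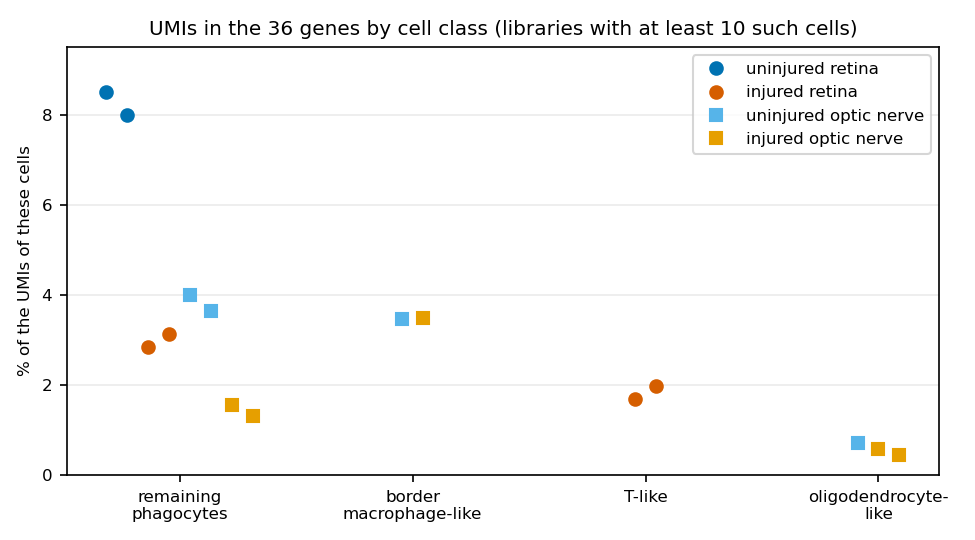
Percent of the UMIs of each cell class that fell in the 36 genes, 1 point for each library with at least 10 such cells. Remaining phagocytes run from 8.50% and 8.00% in uninjured retina to 1.55% and 1.31% in injured nerve, and oligodendrocyte-like cells are at or below 0.718%.

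Whether the genes were seen in the same cells was described within single libraries. Over the 424 remaining phagocytes of nerve 3 thinned to 1000 UMIs, Spearman's rho between pairs of the genes had a median of 0.118 over 325 pairs, with 304 above 0. The pairs Fos-Jun (0.399) and Fos-Junb (0.391) were the highest of these. The median was 0.118 over 61 cells of nerve 1 and 0.0208 over 85 cells of pool 1+2. Cells of a library share its preparation, and sparse counts bound these values, so they are descriptions only.

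Lists of further genes of the same pathways were compared in the same fits. Of the further AP-1, ATF and EGR family genes 0 of 4 tested in retina and 0 of 13 tested in nerve passed, and before adjustment 2 passed upward in retina (Atf6 and Batf) and 0 passed in nerve. Of the MAP kinase and serum response factor pathway genes, which act upstream, 0 of 12 in retina and 0 of 18 in nerve passed, with 2 and 1 before adjustment. The smallest p in retina belonged to Map2k1, a kinase of this cascade (difference -1.41, edgeR adjusted p = 0.0687). Among the 3 other MAP kinase feedback genes tested in retina, Dusp6, an ERK phosphatase, fell by 2.44 (edgeR adjusted p = 0.000582) and Spred1, an inhibitor of RAS signalling, rose by 2.50 (edgeR adjusted p = 0.0255). In nerve 0 of 7 passed.

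Of the NF-kappaB factors and feedback genes 2 of 10 fell in retina, Nfkbid (-1.65, edgeR adjusted p = 0.00406) and Nfkbib (-1.92, edgeR adjusted p = 0.00474), both members of the inhibitor family, a share near the 19.7% of all genes called. The list had 5 genes above 0 and 5 below and a median difference of 0.16, and 0 of 13 passed in nerve, where 2 passed upward before adjustment. The cytokine and chemokine genes with AU-rich 3' ends, whose mRNAs are known targets of the Zfp36 family, had 6 of 9 that fell in retina and 0 rose. Tnf fell by 3.11 (SE 0.31, edgeR adjusted p = 9.67e-05), and Ccl3 (-2.12), Il1a (-1.88) and Ccl4 (-1.81) fell too. In nerve 0 of 12 passed, with Ccl4 at -1.43 (limma adjusted p = 0.333). Their summed level was 28273 and 22256 CPM in retina 5 and 6, 6842 and 6507 CPM in the injured retina pools, 11397 and 10616 CPM in nerve 2 and 4, and 9422 and 3910 CPM in nerve 1 and 3. Heat shock genes rose in retina (10 of 12), led by Bag3 (3.20) and Hspa1b (3.13), and in nerve 2 of 12 fell, Hspa1b (-5.73) and Hspa1a (-4.60). The members and these lists were chosen with earlier results of these data known, so the counts are descriptions.

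**Figure D5:**
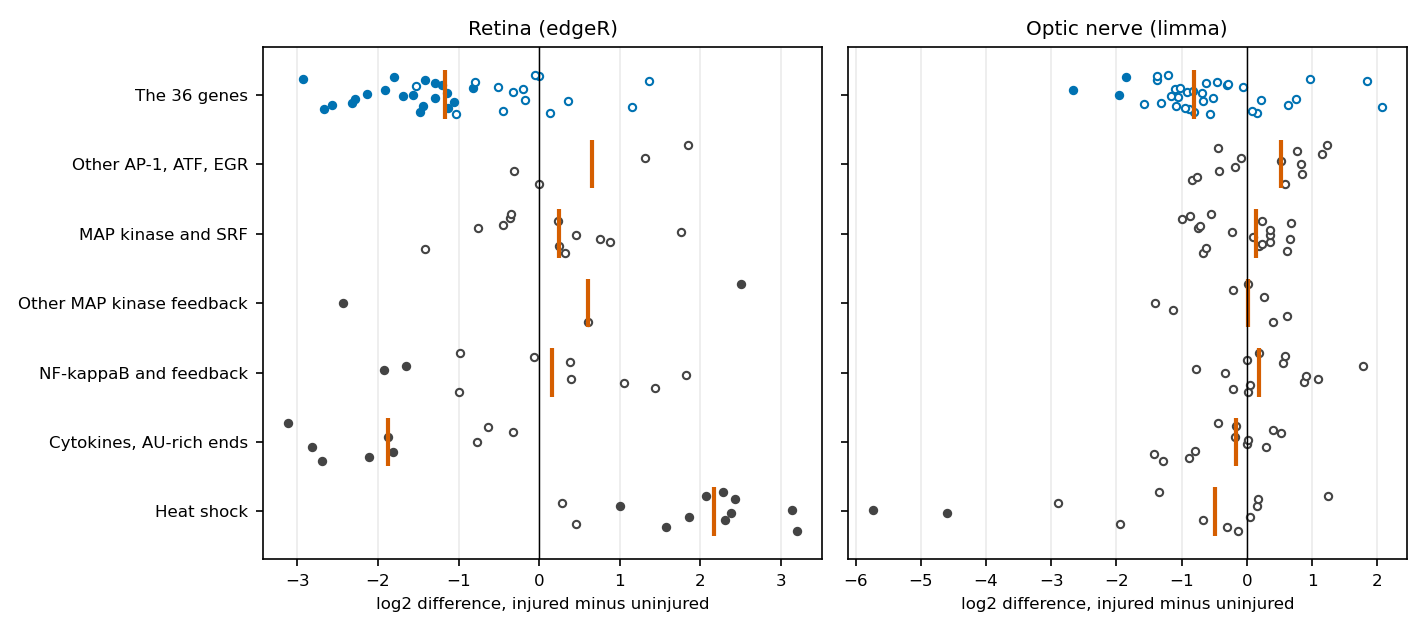
Log2 difference between injured and uninjured libraries for each tested gene of the 36 and of 6 related lists, in retina (left) and optic nerve (right). Filled points passed an adjusted p of 0.05 and the vertical strokes are list medians, which in retina are -1.17 for the 36 genes, -1.88 for the cytokine genes and 2.17 for the heat shock genes.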

How the data were processed

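Single cells of 8 libraries were summed per library. For retina cells the deposited values are raw UMI counts, and for optic nerve cells the authors deposited natural log (ln) values of 1 plus 10000 times the UMI count over the cell's total, as the values show. All 1374534 ln values above 0 gave whole UMIs within 0.01, so counts were recovered. Alignment to mm10 used Cell Ranger 1.3 with bcl2fastq 2.17.1.14 and Seurat 4.0.3, per the submitters' processing notes. Cells with 200 to 6500 genes were kept, per the labels.

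For crush in retina the fit was the quasi-likelihood test of edgeR 4.0.16 (TMM, filterByExpr, 4 libraries, the first 27998 entries). The other comparisons used limma 3.58.1 with trend on log2(TMM CPM + 10) over 8 libraries and genes with a UMI in both tissues. All p-values were adjusted over all genes by Benjamini-Hochberg (0.05). Alternatives were DESeq2 1.42.0, edgeR or limma on all libraries, other scaling, filters and pseudocounts, mean ln values, thinned cells, cell classes left out and each library left out. Scripts were tested on simulated data. Clusters came from scanpy 1.11.5 (2000 variable genes without the 36, 30 components, 15 neighbours, resolution 0.8). A cluster was named with 2 markers of a class among its 10 leading genes and 3 among 50, and endothelial-like cells needed 5 of 14 markers.

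Values in every library are given for genes called in any comparison and for those of highest level, and other genes by range and counts. From each related list up to 4 called genes, or those of smallest p, are named. A gene that this rule also names is not reported here. The members and lists were chosen with earlier results of these data known.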

Additional observations from a re-analysis of the deposited data

Results flagged for a closer look

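The crush effect on Sgk1 was 3.85 higher on the log2 scale in optic nerve than in retina (limma, adjusted p = 0.0452, 8 libraries), a difference between tissues that passed the test of the difference itself. Sgk1 fell in retina, and its nerve groups overlapped. In nerve 2 Sgk1 stood at 34.6 CPM in border macrophage-like cells, which no setting left out, and at 862 CPM in the remaining phagocytes. Over its 10 other settings the limma, edgeR or DESeq2 adjusted p ran from 8.48e-05 to 0.14.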

How the results depend on the processing

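No called gene changed direction in any alternative. With no filter on low counts the genes called were 13 (retina crush), 0 (nerve crush), 0 (difference of crush effects), 3 (uninjured tissues) and 3 (injured tissues), where more genes are tested. Retina crush gave 13 with edgeR and 12 with limma on all 8 libraries, and nerve crush gave 5 with DESeq2. With edgeR the uninjured tissues gave 9 and the injured tissues 11. A pseudocount of 2 gave 1 for nerve crush and 0 for the difference. Mean ln values per cell gave 4 for the difference, 28 for uninjured and 17 for injured tissues. Without oligodendrocyte-like, endothelial-like and T-like cells nerve crush gave 1, the difference 0 and uninjured tissues 5. Thinned cells gave 0 for the difference, 6 for uninjured and 4 for injured tissues. The cause of these changes was not tested. Leaving out each library in turn gave 9 to 23 genes for retina crush, 0 to 3 for nerve crush, 0 to 1 for the difference, 3 to 10 for uninjured and 0 to 10 for injured tissues. Restricting the joint fit to the first part of the table, chosen after seeing the data, moved no count (3, 1, 14 and 7). No paired analysis was possible because the groups of each crush comparison share no library numbers and the injured retina libraries are pools that carry no single number. Depth limits Egr2, Egr3, Nr4a2, Nr4a3, Dusp5, Fosl2, Myc, Klf10 and Csrnp1, each with fewer than 10 UMIs in at least 1 library.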
